A study of Mus musculus with 6 samples.

Results

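The results concern 7 genes that heart muscle cells (cardiomyocytes) use as fetal and stress genes: *Nppa*, *Nppb*, *Myh6*, *Myh7*, *Acta1*, *Ankrd1* and *Rcan1*. They were chosen by symbol, with earlier results of these data known. All were found among the 17441 genes that at least 1 of the 6 RNA-seq libraries listed. All 7 had an FPKM (fragments scaled to transcript length and to the depth of the library) of at least 1 in every library, and all 7 were tested. The libraries came from heart tissue of male mice on a C57BL/6 background, labelled as 12 weeks old, 3 days after surgery. WT mice were either sham operated (WT Sham) or had the left coronary artery ligated, which causes a myocardial infarction (WT MI), and *Card9* KO mice had this artery ligated too (*Card9* KO MI). There were 2 libraries per group, and in the infarcted mice the tissue was taken below the ligature. The KO strain had been constructed previously, and whether a library held 1 mouse or a pool was not given in the sources used here. *Card9* KO mice after sham surgery were not analysed here, so where *Card9* KO MI is set against WT Sham, genotype and infarct cannot be told apart.

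The adult mouse ventricle contracts mainly with the fast α-myosin heavy chain, while the fetal ventricle uses the slower β-myosin heavy chain. When cardiomyocytes are stretched, overloaded or injured, they are known to switch part of this fetal programme back on: the natriuretic peptides, which make the kidney shed salt and relax blood vessels, the β-myosin heavy chain and skeletal α-actin. The border of an infarct is a classical place for this programme, while cardiomyocytes inside the infarct die and are replaced by immune cells and fibroblasts.

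The targeted gene *Card9* (NCBI gene 332579) had an FPKM of 0.99 and 1.03 after sham surgery, 3.39 and 5.08 in infarcted WT hearts and 9.85 and 6.94 where the label is *Card9* KO MI. It was thus not lower in the libraries that carry the KO label (log2 difference to WT MI of 0.85, SE 0.23, adjusted p = 0.112 in limma with Benjamini-Hochberg adjustment). FPKM sums over a gene's exons, so exons that are lost cannot be seen in it. Each direction given below for these libraries against WT MI rests on their label. The step sizes of low FPKM values put the libraries at an estimated 3008000 to 4258000 fragments, with the lowest numbers in WT Sham. The thinnest value of the 7 genes, *Nppa* in WT Sham replicate 2, still rested on about 204 fragments (counting SD 7.01%), so that for these genes the spread between libraries, not depth, limited the precision. The deposited FPKM values were used as they were. With upper-quartile scaling, the median log2 change of all genes between WT MI and WT Sham moved from 0.19 to −0.03, and calls that this changes are named beside the gene.

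By position, the 7 genes form 2 neighbouring pairs and 3 single genes. In mm9, *Nppb* (B-type natriuretic peptide) lies on chromosome 4 at 147359897 to 147361314, and *Nppa* (atrial natriuretic peptide) follows on the same strand at 147374831 to 147376188, with 13516 bases between them. *Myh6* (α-myosin heavy chain) and *Myh7* (β-myosin heavy chain) lie head to tail on the minus strand of chromosome 14, at 55560758 to 55585764 and 55589525 to 55613471, with 3760 bases between them. *Acta1* (skeletal α-actin) is on the minus strand of chromosome 8 at 126415669 to 126418651. *Ankrd1* (a stretch-responsive ankyrin repeat protein of the sarcomere and nucleus, also called CARP) is on the minus strand of chromosome 19 at 36186455 to 36194334. *Rcan1* (an inhibitor of the phosphatase calcineurin that is itself induced by calcineurin and NFAT) is on the minus strand of chromosome 16 at 92392198 to 92466391.

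The promoters of 5 genes are shown so that genes that moved together or apart can be set beside their sequences. Each sequence is the 250 bases before the transcript start in RefSeq (GRCm38.p6), 5′ to 3′ on the strand of the gene, and each matched mm9 exactly at 1 place. In the first 4, capitals mark GATA (the core bound by GATA factors), CATTCC (the MCAT element bound by TEAD factors) and the CArG box (bound by serum response factor), each searched on both strands. In *Rcan1*, capitals mark GGAAA, the core bound by NFAT. The *Rcan1* promoter shown is the inner one, which drives the shorter, calcineurin-inducible transcript. The GENCODE model of *Nppb* starts inside the window shown.
Nppa, chr4:147374581-147374830, plus strand: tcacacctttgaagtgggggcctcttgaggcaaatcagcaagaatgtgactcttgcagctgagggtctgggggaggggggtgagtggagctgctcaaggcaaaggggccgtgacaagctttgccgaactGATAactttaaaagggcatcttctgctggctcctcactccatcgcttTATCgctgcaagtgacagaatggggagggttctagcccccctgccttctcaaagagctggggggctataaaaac
Nppb, chr4:147359759-147360008, plus strand: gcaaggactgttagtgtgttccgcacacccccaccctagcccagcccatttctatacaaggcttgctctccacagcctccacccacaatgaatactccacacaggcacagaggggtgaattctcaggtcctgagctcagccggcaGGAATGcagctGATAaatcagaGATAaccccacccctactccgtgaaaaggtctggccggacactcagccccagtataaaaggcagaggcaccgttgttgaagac
Ankrd1, chr19:36194335-36194584, minus strand: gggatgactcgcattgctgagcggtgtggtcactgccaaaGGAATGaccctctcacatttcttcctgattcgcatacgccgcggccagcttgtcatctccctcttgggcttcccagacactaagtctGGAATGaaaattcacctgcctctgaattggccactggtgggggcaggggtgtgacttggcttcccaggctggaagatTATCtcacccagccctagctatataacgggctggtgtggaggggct
Acta1, chr8:126418676-126418925, minus strand: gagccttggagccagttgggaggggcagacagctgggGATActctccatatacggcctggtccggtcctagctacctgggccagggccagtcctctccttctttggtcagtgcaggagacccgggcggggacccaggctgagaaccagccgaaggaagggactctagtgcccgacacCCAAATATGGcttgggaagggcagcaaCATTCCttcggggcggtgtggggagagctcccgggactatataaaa
Rcan1, chr16:92400324-92400573, minus strand: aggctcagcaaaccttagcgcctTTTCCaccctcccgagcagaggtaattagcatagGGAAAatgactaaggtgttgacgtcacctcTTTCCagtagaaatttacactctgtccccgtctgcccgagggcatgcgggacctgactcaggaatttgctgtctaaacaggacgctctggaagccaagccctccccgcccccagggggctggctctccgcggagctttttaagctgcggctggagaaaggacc

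Of all 32851 promoter windows of this length, 53.6% held GATA, 12.6% CATTCC, 1.47% a CArG box and 55.6% GGAAA. The *Nppa* and *Nppb* windows held 2 GATA cores each. The *Nppb* window also held CATTCC, at −105 to −100 from the start, and the *Nppa* window held none. *Ankrd1* held CATTCC at 2 places, −210 to −205 and −123 to −118, and 1 GATA core. *Acta1* held a CArG box at −73 to −64, CATTCC at −46 to −41 and 1 GATA core. The windows of *Myh6* and of the first listed start of *Myh7* held CATTCC at 1 place each. The inner *Rcan1* window held GGAAA at 3 places, and its outer window, at the start of the longer transcript, at none. These matches describe the letters of the windows, and binding was not measured.

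Before the groups are compared, the WT Sham libraries need a separate account, because they differed in 6 of these genes more than in most others. Replicate 1 was higher than replicate 2 in 6 of the 7 genes, each at least 1.5-fold. *Nppa* was 4.16-fold higher (FPKM 325.62 and 78.20) and *Acta1* 4.12-fold (1312.46 and 318.72). The fold was 2.49 for *Nppb*, 2.35 for *Ankrd1*, 1.94 for *Rcan1* and 1.84 for *Myh7*, whereas *Myh6* was 1.14-fold lower in replicate 1. The 1474 genes with a mean FPKM of at least 50 were ordered by how far WT Sham replicate 1 lay above replicate 2. *Nppa* ranked 1, *Acta1* 2, *Nppb* 4, *Ankrd1* 6 and *Rcan1* 12. Genes higher in replicate 2 come last in this order, however wide their gap. The haemoglobin genes of red blood cells were also higher in replicate 1, *Hba-a1* with 767.83 and 308.01 (rank 5) and *Hbb-bs* with 696.83 and 298.34 (rank 7), as was *Ptgds* with 638.61 and 276.05 (rank 8). Of all 13120 genes tested, 0.328% were at least as far apart as *Nppa*, 0.739% as *Nppb* and 2.91% as *Myh7*. In both infarct groups, *Myh7* alone of the 7 genes was at least 1.5-fold apart between the libraries. The 20 cardiomyocyte markers did not follow: their geometric mean was 1946 and 1980. Markers of atrial muscle (8 genes) summed to 29.0 and 37.2, mostly from *Stard10* (16.84 and 21.75) and *Tbx5* (9.79 and 13.35). *Myl4* was at 0.73 and 0, *Myl7* at 0.55 and 0.58, and *Sln* and *Bmp10* were at 0 in all 6 libraries. The part of atrial tissue or blood in this gap was not tested. Every comparison with WT Sham is therefore also given without each of these libraries where that matters.

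After infarction of WT mice the natriuretic peptides and *Ankrd1* were higher, *Myh7* was higher from a low level, and *Myh6* was lower. Of the 7 genes, 4 were called higher after infarction (limma, adjusted p under 0.05), where 27.7% of all genes tested were, and 1 was called lower, where 9.39% were. The study's own kind of screen asks for a 2-fold difference of group means and a probability above noise of at least 0.8. Its noise is the replicate differences of both groups pooled over genes, so it has no error of the single gene. It called the same number higher (*Nppa*, *Nppb*, *Myh7* and *Ankrd1*, with a background of 6.06%) and none of the 7 lower (background 0.906%). The libraries of the groups did not overlap for 6 of the 7 genes, with a background of 70.4% over all genes, so that non-overlap was common in this comparison. The median log2 change of the 7 genes was 1.07 and that of all genes tested 0.19.

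**Figure D1:**
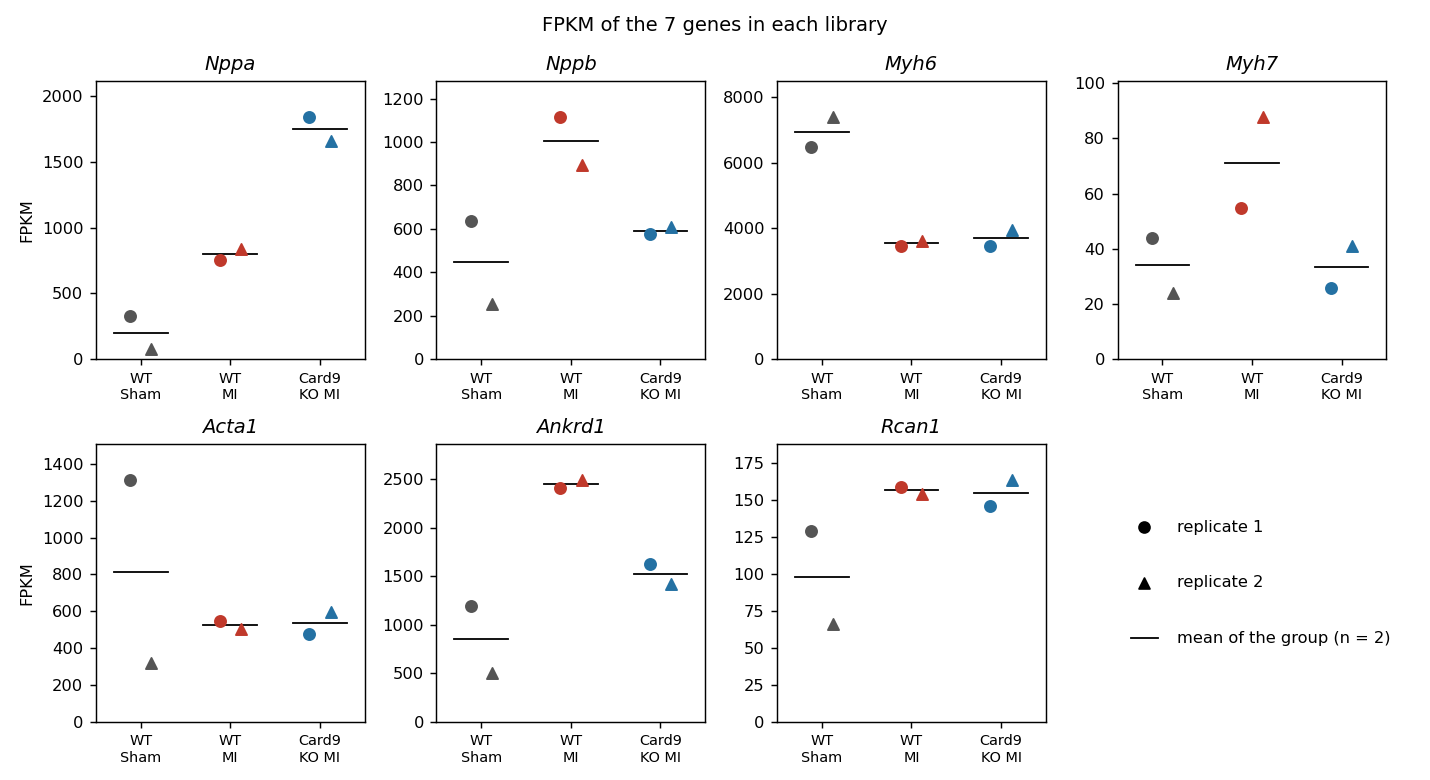
FPKM of the 7 genes in the 6 libraries, 1 panel per gene with its own axis from 0; circles are replicate 1, triangles replicate 2, and the line is the mean of the group (n = 2). *Nppa* steps up from WT Sham to WT MI to *Card9* KO MI, *Nppb* and *Ankrd1* are highest in WT MI, and the grey points of WT Sham lie far apart in every panel but that of *Myh6*.

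*Nppa*, the precursor of atrial natriuretic peptide, had an FPKM of 325.62 and 78.20 after sham surgery and of 757.55 and 838.11 after infarction. Both infarct libraries were above both sham libraries, and the mean was 3.95-fold higher (log2 fold change 2.31, SE 0.53, adjusted p = 0.0118). *Nppb*, the precursor of B-type natriuretic peptide, had 635.14 and 254.62, rising to 1113.95 and 893.82, a 2.26-fold higher mean (log2 fold change 1.31, SE 0.36, adjusted p = 0.0231). In WT Sham *Nppb* was the more abundant of the peptide genes in both libraries, by 1.95-fold and 3.26-fold. In the infarcted WT hearts this lead shrank to 1.47-fold and 1.07-fold. The size of the rise depended on the sham library it was set against. Without WT Sham replicate 1 the log2 change of *Nppa* was 3.33 and without replicate 2 it was 1.29, and for *Nppb* these values were 1.97 and 0.65, each still called. Without WT MI replicate 1 or 2 the adjusted p was 0.0608 and 0.0676 for *Nppa*, and 0.13 and 0.0674 for *Nppb*.

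*Ankrd1*, which binds titin in the spring region of the sarcomere and also acts in the nucleus, had 1188.09 and 506.56 in sham hearts, against 2411.13 and 2489.58 with an infarct. Its mean rose 2.89-fold (log2 fold change 1.66, SE 0.33, adjusted p = 0.00641), and it ranked 14 by FPKM in both WT MI libraries. The call held with any 1 of the 6 libraries removed. For *Rcan1* the sham libraries held 128.94 and 66.43, those of WT MI 158.86 and 154.31. Its infarct libraries lay above both sham libraries, but its log2 difference of 0.75 (SE 0.26) missed the threshold (adjusted p = 0.0541). Against WT Sham replicate 2 alone the difference was 1.22 (adjusted p = 0.00109), and against replicate 1 alone it was 0.28 (adjusted p = 0.143).

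The myosin heavy chains moved in opposite directions. *Myh6*, among the 8 most abundant genes of every library, stood at 6475.18 and 7384.05 in sham hearts and at 3454.09 and 3611.37 after infarction. The sham mean was 1.96-fold higher (log2 fold change −0.97, SE 0.12, adjusted p = 6.5e-04), and this call held with each library left out. The size was less firm: over all settings tried, the log2 fold change of *Myh6* ran from −1.22 to −0.38. *Myh7* stood at 43.98 and 23.95, then at 54.75 and 87.68, a 2.10-fold higher mean (log2 fold change 1.07, SE 0.33, adjusted p = 0.0391). The *Myh7* call was lost with upper-quartile scaling (adjusted p = 0.0933), without WT Sham replicate 2 (adjusted p = 0.206) and without WT MI replicate 2 (adjusted p = 0.218). Within each library, *Myh7* made up 0.675% and 0.323% of the summed *Myh6* and *Myh7* FPKM of the sham hearts, and 1.56% and 2.37% of that of WT MI. The share was thus higher in both infarct libraries, and it stayed small: α-myosin dominated in all of them. The transcripts of both genes are alike, and 22.2% of the 50-base windows of *Myh7* occur in *Myh6*. How the authors assigned such fragments was not given in the sources used here, so part of the *Myh7* level may be fragments of *Myh6*. That part was not measured here.

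*Acta1*, the skeletal isoform of sarcomeric α-actin that the fetal heart expresses, was not called. Its sham libraries, at 1312.46 and 318.72, lay on both sides of the WT MI libraries, at 547.23 and 502.94 (log2 difference −0.30, SE 0.53, 95% interval −1.54 to 0.94, adjusted p = 0.693). Which sham library was kept decided the direction. Without WT Sham replicate 1, *Acta1* was called higher in WT MI (log2 0.72, adjusted p = 0.0198), and without replicate 2 it was called lower (−1.32, adjusted p = 0.00304). Its share of the summed *Acta1* and *Actc1* FPKM, *Actc1* being the cardiac α-actin of the adult heart, was 11.4% and 3.11% without an infarct, 6.47% and 5.34% after ligation. Unlike the myosins, *Acta1* shared no 50-base window with *Actc1* or with the smooth muscle actin *Acta2*.

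Cardiomyocyte markers made up less of the RNA after infarction. In bulk tissue, fewer cells of a type and less RNA per cell cannot be told apart. Of the 20 cardiomyocyte markers, 15 were called lower after infarction, where 9.39% of all genes were, and none higher (median log2 change −0.75). With quantile normalization 12 were called lower and 1 higher (median −0.43), and with upper-quartile scaling 20 were called lower. As deposited, their summed FPKM was 77013 and 77310 in WT Sham against 44470 and 46076 in WT MI. At the same time all 10 macrophage markers and 8 of 10 fibroblast markers were called higher, where 27.7% of all genes were. The sums were 233 to 286 and 1103 to 1421 for macrophages, and 495 to 519 and 1491 to 2015 for fibroblasts. *Myh6* fell by 0.97 on the log2 scale. The 7 genes were therefore also set against the markers, by subtracting in each library their mean log2(FPKM + 1) before the same fit. None of the 7 genes is among the 20 markers.

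Per level of cardiomyocyte markers, 5 of the 7 genes were called higher in WT MI. So were 77.3% of all genes, since nearly everything rises against a falling reference, and this count says little by itself. The log2 changes were 3.01 for *Nppa* (SE 0.44), 2.36 for *Ankrd1* (SE 0.28), 2.01 for *Nppb* (SE 0.30), 1.77 for *Myh7* (SE 0.27) and 1.45 for *Rcan1* (SE 0.23), with adjusted p from 2.2e-05 to 1.7e-04. *Myh6* remained called lower, by a log2 value of only −0.27 (SE 0.09, adjusted p = 0.0173), where 0.724% of all genes were. This last call was lost when the 10 most abundant markers alone were the reference (adjusted p = 0.136), without WT MI replicate 1 (adjusted p = 0.0627) and without WT Sham replicate 2 (adjusted p = 0.213). *Acta1* was not called (0.40, SE 0.43, adjusted p = 0.404). Most of the fall of *Myh6* in the tissue was thus shared with the other cardiomyocyte genes, and the changes of the other genes are by construction larger on this scale, by the amount that the markers fell.

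**Figure D2:**
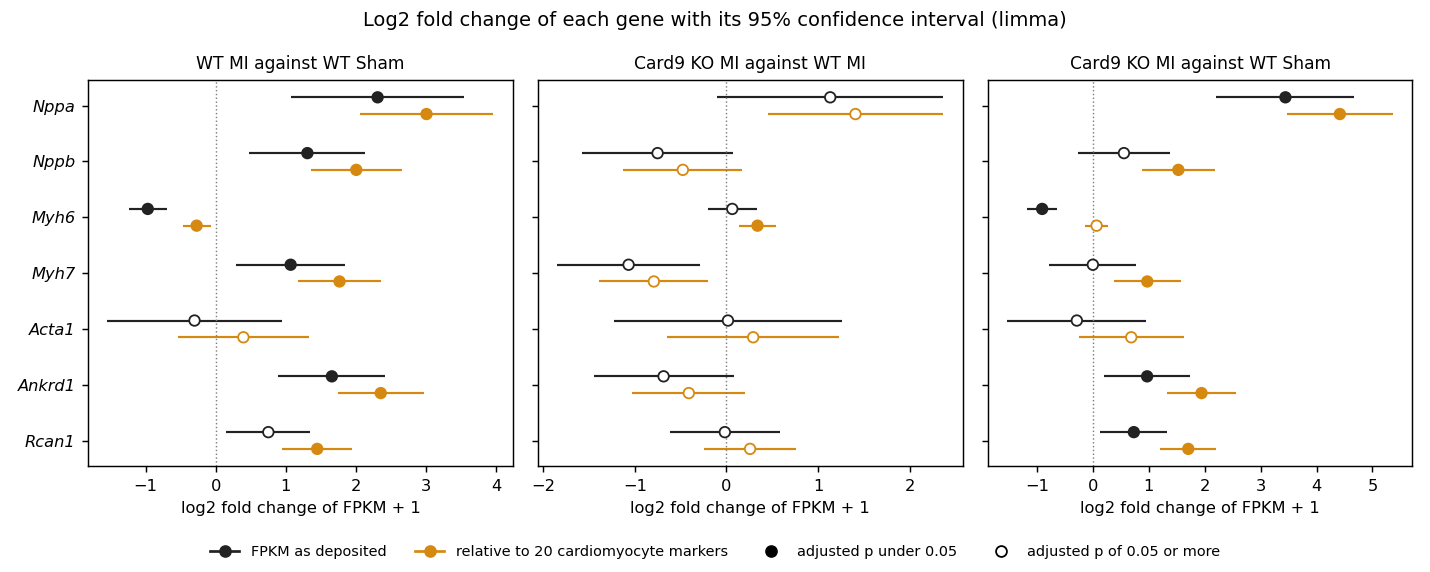
Log2 fold change of each gene in the 3 comparisons, on log2(FPKM + 1), with the 95% confidence interval of limma; black uses FPKM as deposited, orange the values relative to 20 cardiomyocyte markers, and filled points have an adjusted p under 0.05. On the left 5 black points are filled, and in the middle none is, with *Nppa* at 1.13 and *Myh7* at −1.07 at the ends of the range.

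The genotype comparison gave the natriuretic peptides in opposite directions. In the libraries labelled *Card9* KO MI, *Nppa* was above both WT MI libraries, while *Nppb*, *Ankrd1* and *Myh7* were below both, and *Myh6*, *Acta1* and *Rcan1* overlapped with WT MI. By limma 0 of the 7 genes were called higher, where 0.816% of all genes tested were, and 0 lower, where 0.587% were. At an unadjusted p under 0.05, 1 of the 7 passed, *Myh7*, as did 20% of all genes. Non-overlapping libraries, as for 4 of the 7 genes, were seen for 52.7% of all genes. The screen of group means called *Nppa* higher, as it did 0.728% of genes, and *Myh7* lower, as it did 0.332%.

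*Nppa* had 1841.23 and 1660.66 under the *Card9* KO MI label, against 757.55 and 838.11 in infarcted WT hearts, a 2.19-fold higher mean. The libraries within each group were only 1.11-fold apart. The log2 difference was 1.13 with a 95% interval of −0.10 to 2.37 (SE 0.53, adjusted p = 0.287). The wide interval came from the sham libraries, which enter the shared estimate of the spread. Fitted on the 4 infarct libraries alone, the SE of *Nppa* was 0.12 and it was called (adjusted p = 0.0182). The calls without WT Sham replicate 1 (adjusted p = 0.0143) or replicate 2 (adjusted p = 0.0149) were the same. *Nppa* ranked 20 and 24 by FPKM there, 66 and 53 in infarcted WT hearts and 207 and 815 in sham hearts.

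*Nppb* had 575.78 and 608.57 under this label, against 1113.95 and 893.82 in WT MI. WT MI was 1.70-fold higher by the mean, and the log2 difference of −0.75 (95% interval −1.58 to 0.07, SE 0.36, adjusted p = 0.291) was not called, nor was it in the fit of the 4 infarct libraries (adjusted p = 0.0689). The ratio of *Nppa* to *Nppb* within a library was 0.513 and 0.307 in sham hearts, 0.680 and 0.938 in infarcted WT hearts and 3.20 and 2.73 under the *Card9* KO MI label. *Nppb* was thus the more abundant peptide gene in all 4 WT libraries and *Nppa* in both libraries labelled *Card9* KO MI. With 2 libraries against 2, an exact permutation test cannot give a two-sided p below 0.333, and this ratio was not tested.

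*Ankrd1* followed *Nppb*, with 1628.37 and 1421.78 under this label against 2411.13 and 2489.58 in WT MI (WT MI 1.61-fold higher, log2 difference −0.69, SE 0.33, adjusted p = 0.297). *Myh7* had 25.80 and 40.91 against 54.75 and 87.68 (WT MI 2.14-fold higher, log2 difference −1.07, 95% interval −1.85 to −0.29, SE 0.33, unadjusted p = 0.0134 and adjusted p = 0.142 in limma). The share of *Myh7* in the summed myosin FPKM was 0.740% and 1.03% in these libraries, between WT Sham and WT MI. For *Rcan1* the values of 146.19 and 163.52 enclosed those of WT MI, and the log2 difference of −0.02 had an interval of −0.62 to 0.58. *Myh6*, at 3460.74 and 3934.43, differed by 0.06 (interval −0.21 to 0.33), and *Acta1*, at 474.11 and 593.60, by 0.02 (interval −1.23 to 1.26). For *Acta1* this interval is too wide to show that the groups were alike.

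**Figure D3:**
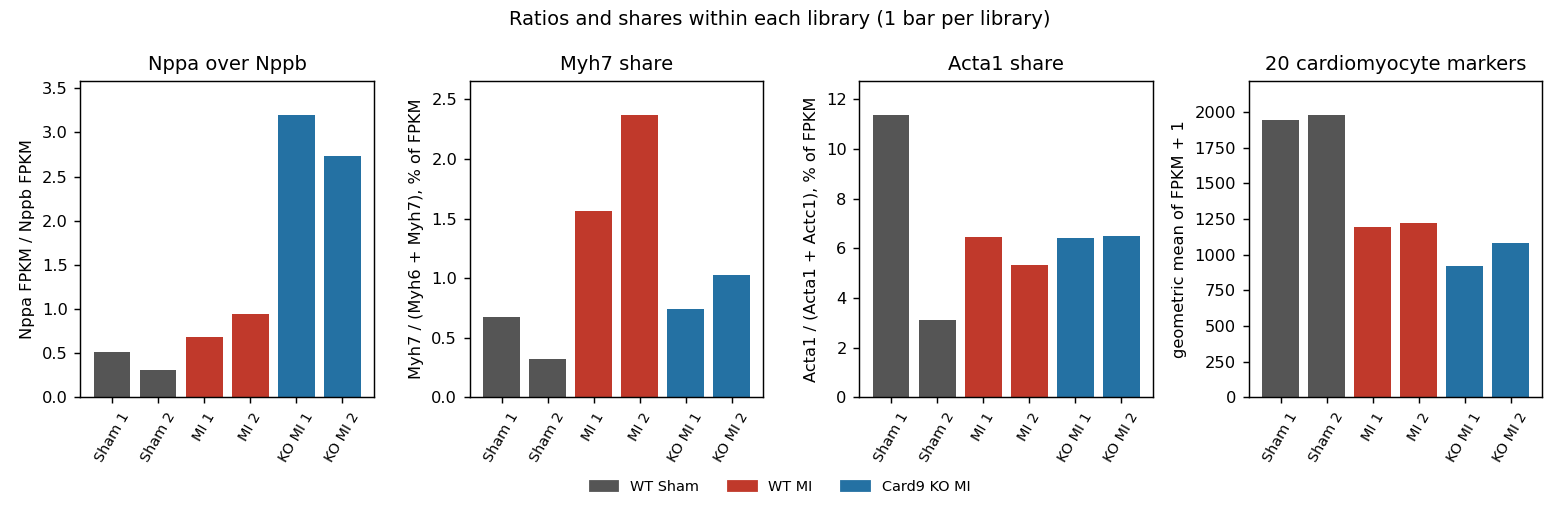
Ratio of *Nppa* to *Nppb* FPKM, share of *Myh7* in *Myh6* plus *Myh7*, share of *Acta1* in *Acta1* plus *Actc1* (both in percent of FPKM) and geometric mean of FPKM + 1 of 20 cardiomyocyte markers, with 1 bar per library and axes from 0. The first ratio exceeds 1 only in the libraries labelled *Card9* KO MI, at 3.20 and 2.73, and the *Myh7* share is highest in WT MI, at 1.56% and 2.37%.

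Markers of other cell types were compared between the infarct groups as well, where 0.816% of all genes tested were called higher and 0.587% lower. The geometric mean of the cardiomyocyte markers was 1197 and 1225 in infarcted WT hearts and 924 and 1082 under the *Card9* KO MI label. Of these 20 markers, 1 was called lower, *Tcap*, and 19 had a negative log2 difference (median −0.26). Smooth muscle markers summed to 227 and 216 in infarcted WT hearts and to 467 and 441 under the *Card9* KO MI label (2 of 6 called higher). Fibroblast markers summed to 1491 and 2015 against 3202 and 3071 (3 of 10 called higher). Of these 10 fibroblast markers, 8 had a positive log2 difference. The other 2 were *Pdgfra*, at 15.2 and 15.87 against 10.64 and 10.43, and *Dcn*, at 296.75 and 385.71 against 297.49 and 309.52. Macrophage markers summed to 1103 and 1421 against 2197 and 1565 (0 of 10 called), and neutrophil markers to 212 and 92.9 against 59.9 and 46.7 (0 of 6 tested called). The atrial markers, relevant because *Nppa* is most abundant in the atria, summed to 16.0 and 22.2 in infarcted WT hearts and to 20.7 and 22.4 under the *Card9* KO MI label, with 0 of the 4 that could be tested called. Most of this sum came from *Stard10* and *Tbx5*. Of the 4 tested, 3 had a positive log2 difference (median 0.33): *Dkk3*, at 2.19 and 3.16 against 4.81 and 6.30, did not overlap (0.84, adjusted p = 0.102), and *Myl4*, at 0.57 and 2.06 against 1.08 and 3.37, did. The atrial light chain *Myl7* was at 0 in all 4 infarct libraries. The skeletal muscle markers, relevant for *Acta1*, summed to 15.5 and 16.5 against 25.1 and 24.4, and the 3 that could be tested had a positive log2 difference and no overlap, with none called. Among them were *Tnnt3*, at 3.69 and 4.4 against 9.26 and 7.92 (0.94 and 0 in sham hearts), and *Tnni2*, at 2.69 and 2.38 against 5.43 and 3.39 (0.49 and 1.03 in sham hearts), both also called higher after infarction of WT mice (*Tnni2* not with quantile normalization, adjusted p = 0.062). The myosins *Myh2* and *Myh4* did not exceed 0.05 in any library. The part of these shifts in the differences of the 7 genes was not tested.

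Set against the cardiomyocyte markers, *Nppa* was higher in *Card9* KO MI than in WT MI by a log2 value of 1.41 (95% interval 0.46 to 2.36, SE 0.44, adjusted p = 0.0641) and *Myh7* lower by a log2 value of −0.79 (interval −1.39 to −0.20, adjusted p = 0.0849). Neither was called. *Myh6* was called higher, by 0.34 (SE 0.09, adjusted p = 0.0442), as were 7.78% of all genes on this scale, and 0 of the 7 were called lower (background 0.381%). This call was lost without WT MI replicate 1 or 2, *Card9* KO MI replicate 1 or WT Sham replicate 2 (adjusted p from 0.0524 to 0.209), and against the 10 most abundant markers (adjusted p = 0.0686). The differences of *Nppb* (−0.48, adjusted p = 0.273) and *Ankrd1* (−0.41, adjusted p = 0.314) became smaller on this scale. With the shared spread free of either sham library, *Nppa* was called higher on this scale and *Nppb* and *Myh7* lower, at adjusted p of 0.0335 or less. Leaving out WT MI replicate 2 gave the call of *Nppa* (adjusted p = 0.0348), and leaving out WT MI replicate 1 that of *Myh7* (adjusted p = 0.0354).

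Set against WT Sham, the libraries labelled *Card9* KO MI had *Nppa* higher and *Myh6* lower. This comparison shares its sham libraries with that of WT MI, so the values of both are given side by side and not compared by a test. Called higher were 3 of the 7 genes, with a background of 34.8%, and called lower 1, with a background of 14.3%. The screen called only *Nppa* of the 7 genes higher (background 8.56%) and none lower (background 1.94%). *Nppa* was 8.67-fold higher (log2 fold change 3.44, SE 0.53, adjusted p = 0.00134) and held its call with every library left out. *Ankrd1* (0.97, adjusted p = 0.0412) and *Rcan1* (0.73, adjusted p = 0.0473) each lost theirs when a *Card9* KO MI or WT MI library or WT Sham replicate 2 was left out, and with upper-quartile scaling. *Myh6* was 1.87-fold higher in WT Sham (log2 fold change −0.91, adjusted p = 5.4e-04, and −1.21 to −0.31 on the log2 scale over all settings tried). *Nppb* was not called (0.56, 95% interval −0.27 to 1.38, adjusted p = 0.231), and its libraries lay between the WT Sham libraries. Its log2 difference was 1.21 without WT Sham replicate 1 and −0.10 without replicate 2. *Myh7* had a log2 difference of 0.00 (interval −0.78 to 0.78), with both libraries inside the range of WT Sham. *Acta1* again took its direction from the sham library kept, at 0.73 without replicate 1 and −1.31 without replicate 2. The libraries of the groups did not overlap for 4 of the 7 genes, where 76.1% of all genes did not. Per level of cardiomyocyte markers, *Nppa* (4.42), *Ankrd1* (1.94), *Rcan1* (1.71), *Nppb* (1.53) and *Myh7* (0.97) were called higher, with a background of 86.7%. On this scale *Myh7* was at 1.41 without WT Sham replicate 1 and at 0.54 without replicate 2. None of the 7 was called lower (background 0.8%), and *Myh6* was level with the markers (0.07, interval −0.13 to 0.27).

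The genes that act with these 7 were followed in 5 lists of 71 genes in all, of which 67 could be tested: the processing, receptors and second messenger of natriuretic peptides, calcineurin and NFAT, cardiac transcription regulators, partner isoforms of the contractile proteins, and stretch and stress partners. In WT MI against WT Sham 12 of the 67 were called higher, where 27.7% of all genes were, and 14 lower, where 9.39% were. With upper-quartile scaling 6 were higher and 30 lower, so the split depends on the scaling. Of the 14 lower calls, 14 held under both upper-quartile scaling and quantile normalization and 7 with every library left out. Of the 12 higher calls, 6 held under both scalings and 5 with every library left out.

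**Figure D4:**
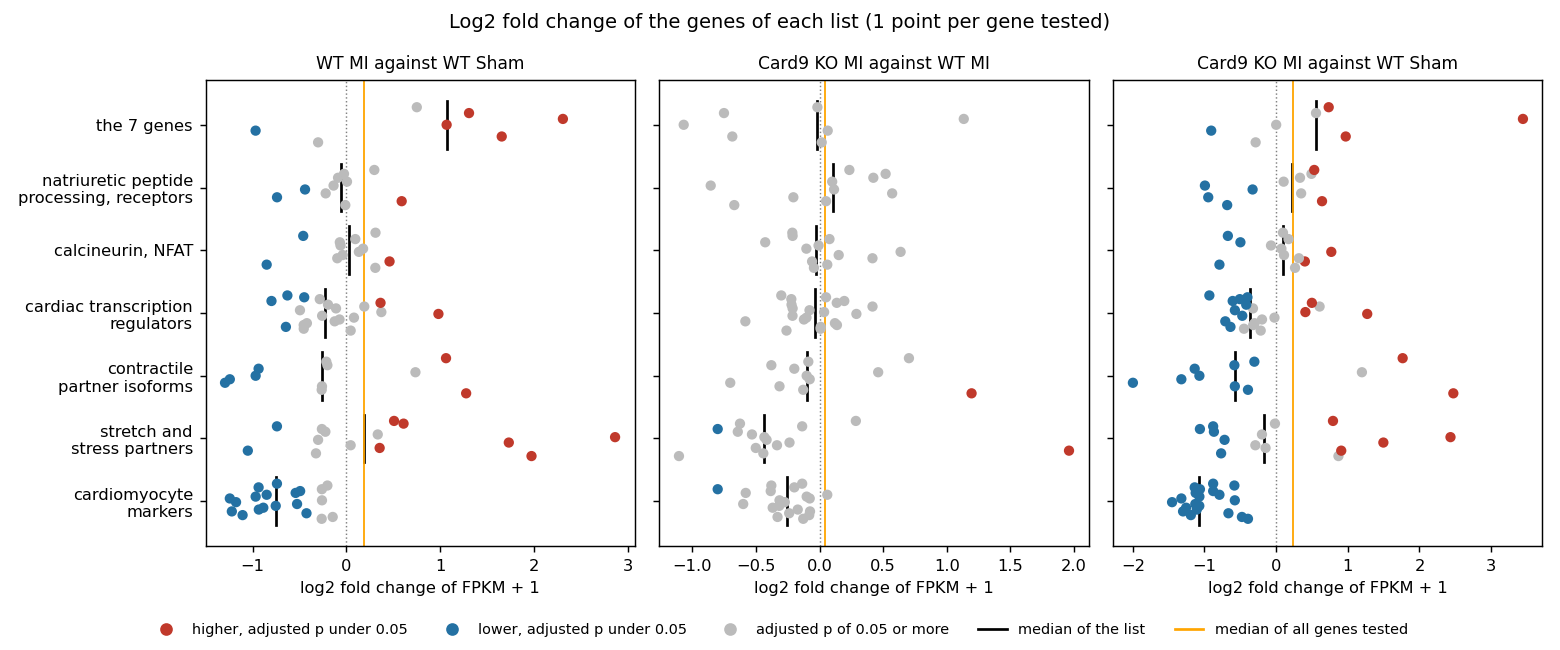
Log2 fold change on log2(FPKM + 1) of each tested gene of the 7 genes, 5 partner lists and the cardiomyocyte markers (1 point per gene, axes differ between panels), with red for higher and blue for lower at an adjusted p under 0.05, a black bar for the median of the list and an orange line for the median of all genes tested. In WT MI against WT Sham the 7 genes have a median of 1.07, while the cardiomyocyte markers lie at −0.75.

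Of the 10 tested genes that process, bind or answer the natriuretic peptides, 1 was called higher and 2 lower in WT MI, beside the 27.7% and 9.39% of all genes. The higher one was *Furin*, a protease that cuts the *Nppb* precursor, with 33.3 and 40.6 in sham hearts and 59.9 and 52.1 in infarcted WT hearts (log2 fold change 0.59, adjusted p = 0.00845, lost with upper-quartile scaling at 0.0654). Called lower were *Npr2*, the receptor of C-type natriuretic peptide, at 22.6 and 24.2 against 17.4 and 16.6 (−0.44, adjusted p = 0.0173), and the peptide-degrading protease *Mme* (neprilysin; −0.74, adjusted p = 0.0218). Both calls were lost without WT MI replicate 1, WT MI replicate 2 or WT Sham replicate 2. *Npr1*, the receptor through which both cardiac peptides signal, had 7.40 and 8.12 in sham hearts, 6.63 and 6.39 in infarcted WT hearts and 9.86 and 10.4 under the *Card9* KO MI label, and was not called in any comparison. With upper-quartile scaling it was called lower after infarction (−0.44, adjusted p = 0.0373). *Corin*, the protease that cuts the *Nppa* precursor, had 50.3 and 55.6, then 56.5 and 48.8, and was lowest in the libraries labelled *Card9* KO MI, at 30.1 and 35.2. Against WT MI its log2 difference there was −0.67 (adjusted p = 0.051, and 0.0493 with upper-quartile scaling), and against WT Sham it was called lower (−0.68, adjusted p = 0.00289). The libraries with the most *Nppa* thus had the least of its processing protease. Cardiomyocyte markers were lower there too, with a median log2 difference of −0.26 to WT MI and −1.07 to WT Sham. *Corin* relative to these markers was not tested. The clearance receptor *Npr3* was also called lower there against WT Sham (−0.99, adjusted p = 0.00769), at 1.53 and 1.10 against 3.38 and 3.81. The C-type peptide gene *Nppc* was listed in none of the libraries.

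Of the 12 calcineurin and NFAT genes, 1 was called higher and 2 lower in WT MI, beside 27.7% and 9.39% of all genes. Both lower ones are abundant in muscle: *Rcan2*, a paralogue of *Rcan1*, had 240.5 and 235.3 in sham hearts and 169.2 and 176.0 in infarcted WT hearts (−0.46, adjusted p = 0.0107, lost without either WT MI library or WT Sham replicate 1), and *Myoz2* (calsarcin, which tethers calcineurin to the Z disc) fell from 1110 and 1007 to 585 and 587 (−0.85, adjusted p = 4.3e-04). *Nfatc1* was called higher (0.46, adjusted p = 0.0347), a call that was lost with upper-quartile scaling and without any 1 of the 6 libraries. The calcineurin subunits *Ppp3ca*, *Ppp3cb* and *Ppp3r1* were not called in any comparison. None of the 12 was called between the infarct groups. Against WT Sham, the libraries labelled *Card9* KO MI had *Ppp3cc*, another catalytic subunit of calcineurin, lower (−0.50, adjusted p = 0.00965) and *Nfatc4* higher (0.77, adjusted p = 0.0124). Both calls were lost without *Card9* KO MI replicate 1 or WT Sham replicate 1, and that of *Nfatc4* with quantile normalization (adjusted p = 0.183).

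Among the 20 transcription regulators, 2 were called higher and 4 lower in WT MI (27.7% and 9.39% of all genes). With upper-quartile scaling these counts were 1 and 12, and with quantile normalization 1 and 11. *Mrtfa*, a coactivator of serum response factor, had 3.66 and 5.39 in sham hearts and 9.66 and 9.90 in infarcted WT hearts (0.98, adjusted p = 0.00635), and the call held with every library left out. *Tbx20* was also called higher (0.36, adjusted p = 0.0418), which was lost with upper-quartile scaling and with any library left out. Called lower were *Tbx5* (−0.80, adjusted p = 0.0161), *Hand2* (−0.65, adjusted p = 0.0379) and the thyroid hormone receptors *Thra* (−0.45, adjusted p = 0.0105) and *Thrb* (−0.63, adjusted p = 0.0239), which activate *Myh6* and repress *Myh7*. Each of these 4 lost its call without at least 1 library. Of the factors whose motifs were marked in the promoters, *Gata4* had 59.3 and 55.6 in sham hearts and 66.6 and 52.8 in infarcted WT hearts, and *Gata4*, *Srf* and *Tead1* were not called in WT MI. With upper-quartile scaling *Srf* (−0.44, adjusted p = 0.00978) and *Tead1* (−0.53, adjusted p = 0.0144) were called lower there. None of the 20 was called between the infarct groups, and with upper-quartile scaling 1 was, *Irx4* (−0.63, adjusted p = 0.0488). Against WT Sham, 3 were higher and 9 lower in *Card9* KO MI, beside 34.8% and 14.3% of all genes. With upper-quartile scaling or quantile normalization these counts were 1 and 15. Among the lower ones were the ventricular repressor *Irx4* (−0.71, adjusted p = 0.00145), *Srf* (−0.42, adjusted p = 0.00874) and *Tead1* (−0.51, adjusted p = 0.0117). The calls of *Srf* and *Tead1* were lost without WT Sham replicate 1, and that of *Tead1* also without *Card9* KO MI replicate 1. The median of the list was −0.36, beside 0.24 for all genes.

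Of the 11 tested contractile partners, 2 were called higher in WT MI and 4 lower, beside 27.7% and 9.39% of all genes. The higher ones were *Acta2* (smooth muscle α-actin) and *Tpm2* (β-tropomyosin). The lower ones were the adult ventricular *Tnni3* (−0.94), *Myl2* (−1.24) and *Myl3* (−0.97) and the myosin *Myh7b* (−1.30, adjusted p = 0.00246). The counts were 2 and 8 with upper-quartile scaling and 4 and 4 with quantile normalization. The adult isoforms *Actc1*, *Tnnt2*, *Tpm1* and *Mybpc3* and the atrial *Myl4* were not called. *Actc1* was lower with upper-quartile scaling (−0.51, adjusted p = 0.0301) and higher with quantile normalization (0.49, adjusted p = 0.00677). *Tnni3*, *Myl2* and *Myl3* also belong to the cardiomyocyte markers. *Acta2* had 34.8 and 54.2 in sham hearts, 117.3 and 97.2 in infarcted WT hearts and 252.1 and 239.1 under the *Card9* KO MI label. It was called between the infarct groups (1.19, adjusted p = 0.0388), though not with any infarct library left out. *Acta2* belongs to the smooth muscle list and makes up a large part of its sum. Between the infarct groups all 6 genes of that list had a positive log2 difference. In WT MI against WT Sham 3 of the 6 were called higher, and *Myh11* (−0.02), *Smtn* (−0.23) and *Lmod1* (0.01) were not. The fetal troponin *Tnni1* did not exceed 0.73 in any library. *Tnni1* was thus near the limit of detection, while *Myh7* and *Acta1* were well above it.

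Of the stretch and stress partners, 6 of 14 were called higher in WT MI and 2 lower, beside 27.7% and 9.39% of all genes (3 and 5 genes with upper-quartile scaling). *Gdf15*, a secreted stress cytokine, had 7.11 and 1.86 in sham hearts, 28.7 and 40.5 in infarcted WT hearts and 24.0 and 26.1 under the *Card9* KO MI label (WT MI against WT Sham 2.87, adjusted p = 0.00164). *Gdf15* was also higher in WT Sham replicate 1 than in replicate 2, as the 6 fetal and stress genes were. *Fhl1*, a stretch sensor at titin, had 58.8 and 54.7 in sham hearts and 211.8 and 171.9 in infarcted WT hearts (1.73, adjusted p = 5.9e-05). *Ankrd2*, the skeletal muscle relative of *Ankrd1*, had 0.29 and 0 in sham hearts, 3.65 and 3.29 in infarcted WT hearts (1.98, adjusted p = 0.00427) and 0.43 and 2.01 in *Card9* KO MI. The sham values lie at or below the 0.477 to 0.499 that 3 fragments give for a 2 kb transcript, so the size of this change is uncertain. *Ttn* (titin) was lower (−0.74, adjusted p = 0.00179), as was the skeletal calsequestrin *Casq1* (−1.05, adjusted p = 0.00757). Between the infarct groups, *Casq1* was called higher in *Card9* KO MI (1.96, adjusted p = 0.0141), with 11.8 and 15.7 against 3.44 and 2.17, and *Tcap* (telethonin, the cap of titin) lower (−0.80, adjusted p = 0.0213), with 306 and 320 against 557 and 536. Both calls were lost without any 1 of the 4 infarct libraries. In that comparison 12 of the 14 genes had a negative log2 difference, with a median of −0.44, beside 0.04 for all genes. The cardiomyocyte markers, which include *Ttn* and *Tcap*, were alike in this, with 19 of 20 negative and a median of −0.26.

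The patterns over the 6 libraries set the genes apart from each other. By the distance of log2(FPKM + 1) from each gene's own mean, which is a description over 6 libraries that share their groups, *Nppb* lay closer to *Ankrd1* (0.55, Pearson's r 0.96) than to its neighbour *Nppa* (3.00), and *Ankrd1* was the third nearest of all genes to *Nppb*, after *Dynlt1b* (0.37) and *Snhg6* (0.50). The genes nearest to *Nppa* were *Clec4a3* (0.44), *Prc1* (0.81) and *Ifi27l2a* (0.83). *Ifi27l2a*, like *Nppa*, was among the 3 abundant genes that lay farthest above replicate 2 in WT Sham replicate 1. Nearest to *Myh6* were *Iftap* (0.09), *Eno3* (0.10), the muscle enolase, and *Rassf9* (0.16). Nearest to *Ankrd1* were *Asns* (0.40) and *Srgn* (0.50), and to *Rcan1* *Abitram* (0.25), *D6Wsu163e* (0.26) and *Rab27a* (0.31). *Myh7* and *Acta1* had no gene closer than 0.55 (*Tac1*) and 0.70 (*H2-Q8*).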

How the data were processed

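Male mouse heart tissue was profiled by RNA-seq in 3 groups of 2 libraries, which the labels name. The authors enriched mRNA with oligo(dT) beads, mapped reads to mm9 (BWA and Bowtie2 in the submitters' processing notes) and deposited FPKM to 2 decimals, listed by NCBI gene number for genes above 0. The gene annotation and whether the counting used strand were not given in the sources used here. FPKM is relative to the library, so a fall of abundant genes raises the others.

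Genes not listed were set to 0. limma 3.58.1 in R 4.3.3 (lmFit, eBayes with trend) was run on log2(FPKM + 1). It covered 13120 genes (FPKM 1 or more, 2 or more libraries), with all 3 groups in a single fit and Benjamini-Hochberg adjustment over all genes; calls have an adjusted p under 0.05. This scale understates the change of low genes. A second fit subtracted the mean of 20 cardiomyocyte markers in each library. Nothing in the labels says that replicates came from separate mice, so p-values measure the spread between these libraries. Fragments were estimated from FPKM steps. Only 74.3% to 80.3% of low values came out within 0.15 of a whole number, so counts were not rebuilt, and estimates cover counting error only. Both scripts were tested on simulated data. Symbols of 17390 of 17441 gene numbers came from a GRCm38.p6 table, used for names, and positions from the GENCODE annotation of mm9. The authors' screen was recomputed on group means (0 replaced by 0.005).

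Genes named are the 7 genes, *Card9*, up to 4 genes per list and comparison with the largest called change and no overlap, direct partners of the 7 genes, and the 3 genes nearest in pattern, of which 1 is not reported here. *Tbx20*, *Thra*, *Srf*, *Tead1*, *Gata4*, *Myl3*, *Ttn*, the calcineurin subunits and genes given as values beside a result were named after their values were seen. The 7 genes and the lists were chosen with earlier results of these data known. Alternatives were the added FPKM, filters, scalings, trend, the groups fitted, a replicate block, the markers used, the screen and each library left out. Analyses used Python 3.11.15, numpy 2.4.6, pandas 2.3.3 and scipy 1.17.1.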

Additional observations from a re-analysis of the deposited data

How the results depend on the processing

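Of the values for single genes, 471 kept direction and side of the threshold, 24 gained a call, 50 lost one and 22 changed sign. Of the counts, 139 moved by less than 1.5 times and 41 by more. The causes were not tested. With 2 libraries per group, each left-out fit assumes that the lone library varies like the others.

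Of the 7 genes, 4 were called higher in WT MI against WT Sham (2 with no filter on low values, 1 to 6 with a library left out) and 1 lower (0 in the screen, 1 to 2 with a library left out). Between the infarct groups 0 were called higher (1 in the fit of only the groups compared, 1 in the screen, 0 to 1 with a library left out) and 0 lower (1 in the screen). In *Card9* KO MI against WT Sham 3 were called higher (1 with no filter, upper-quartile scaling, scaling without the 100 most abundant genes, no trend, only the groups compared or the screen, and 1 to 5 with a library left out) and 1 lower (0 in the screen, 1 to 2 with a library left out). Relative to the markers, the 1 lower call in WT MI against WT Sham became 0 with the 10 most abundant markers and ran from 0 to 1 with a library left out. Between the infarct groups the 1 higher call became 0 with an added FPKM of 0.1 or with the 10 markers and ran from 0 to 2 with a library left out, and the count of 0 lower ran from 0 to 2.

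Of the partner lists, in WT MI against WT Sham 6 were called higher with upper-quartile scaling (12 as deposited) and 30 lower, or 23 with quantile normalization (14 as deposited). Between the infarct groups 3 and 2 were called lower under these scalings (1 as deposited), and in *Card9* KO MI against WT Sham 8 were called higher with upper-quartile scaling (13 as deposited).

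Signs changed mostly in values near 0. With a library left out, *Acta1* ran from −1.32 to 0.72 in WT MI against WT Sham (relative to the markers from −0.64 to 1.43), from −1.31 to 0.73 in *Card9* KO MI against WT Sham (relative to the markers from −0.34 to 1.72) and from −0.146 to 0.178 between the infarct groups. There *Acta1* was also −0.037 with upper-quartile scaling, −0.0083 with quantile normalization and −0.0048 without the 100 most abundant genes. *Rcan1* was 0.028 with quantile normalization, and left-out values between the infarct groups ran from −0.098 to 0.062 for *Rcan1* and from −0.029 to 0.156 for *Myh6*. In *Card9* KO MI against WT Sham *Myh7* was −0.0020 with an added FPKM of 5, −0.29 with upper-quartile scaling, −0.20 with quantile normalization, −0.17 without the 100 most abundant genes, −0.026 in the screen and −0.42 to 0.43 with a library left out. Left-out values ran from −0.10 to 1.21 for *Nppb* in that comparison and from −0.015 to 0.149 for *Myh6* relative to the markers.

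Over all 13120 genes, the differences between replicates 1 and 2 were hardly correlated between the groups (0.002, −0.008 and 0.020). Such a value over all genes cannot tell whether some genes share a batch, and the labels name none. With the replicate number as a block, *Myh7* in WT MI against WT Sham had an adjusted p of 0.0586 in limma, and relative to the markers 2 genes were called higher between the infarct groups. Depth limits *Ankrd2*, *Tnni1* and other genes near the value of 3 fragments, not the 7 genes.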
